A study of Mus musculus with 38 samples.

Results

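The cyclin-dependent kinase (CDK) inhibitor genes other than Cdkn1a are 6 genes: the INK4 genes Cdkn2a, Cdkn2b, Cdkn2c and Cdkn2d, the Cip/Kip gene Cdkn1b, and the phosphatase gene Cdkn3. They were taken by gene symbol, and each of the 6 had 1 entry in each of the 4 normalised-count tables, which list 49585 genes. The 38 libraries are total RNA from mouse back skin, either whole or as sorted reporter-positive cells, after knockout or P95H mutation of SRSF2, a splicing factor of the SR family. The recombinase was Krt14-CreER, a tamoxifen-activated Cre driven by the keratin 14 promoter, which is active in basal keratinocytes and the outer root sheath of hair follicles and is not known to be active in the fibroblasts, immune cells and vessels of the dermis.

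The whole-skin knockout set held Cre-positive SRSF2-KO mice after 4, 10 and 12 days of 4-hydroxy tamoxifen (n = 3 each), against 3 Cre-negative mice with the same SRSF2 KO label, of which 2 were treated for 12 days and 1 for 10 days. No control was treated for 4 days, so shorter treatment and gene loss cannot be told apart in the 4-day comparison. The tdTomato reporter was wild type, heterozygous or homozygous in the mice of this set. The whole-skin P95H set, all tdTomato wild type, held Cre-positive SRSF2-P95H mice at 12 days (n = 2) and 28 days (n = 4), against Cre-negative mice labelled SRSF2 MUT at 12 days (n = 5) and 28 days (n = 3). Every whole-skin mouse, controls included, received the drug on the skin on alternate days. Sorted reporter-positive cells came from SRSF2-KO and control mice at 10 days of 4-hydroxy tamoxifen (n = 3 each). A second sort came from SRSF2-P95H-het and control mice that had 3 tamoxifen injections and were then treated with the carcinogen DMBA and the promoting agent TPA for 20 weeks (n = 3 each). The labels give neither ages nor the Cre status of the sorted controls.

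Cells pass from G1 into S phase when cyclin D with CDK4 or CDK6, and then cyclin E with CDK2, phosphorylate the retinoblastoma protein and release E2F transcription factors. The INK4 proteins p16Ink4a (Cdkn2a), p15 (Cdkn2b), p18 (Cdkn2c) and p19Ink4d (Cdkn2d) bind CDK4 and CDK6, whereas p27 (Cdkn1b) binds cyclin-CDK2 complexes. Cdkn2a also encodes p19Arf, which restrains the p53 antagonist MDM2, and Cdkn3 encodes a phosphatase that acts on CDK2 and CDK1 and is itself transcribed mainly in dividing cells. In keratinocytes p15 is a known target of TGF-beta, and p16Ink4a and p19Arf are markers of senescence and oncogenic stress.

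Levels in whole skin are given as steps, since every value of a library was a whole multiple of 1 step, and levels in sorted cells as the deposited normalised counts. Undetected genes lay at 1 step in whole skin, so a level of 1 step is not evidence of transcript. The steps of a library summed to 28515245 to 37528050 in the knockout set and 16100013 to 17388749 in the P95H set, which are levelled totals and not depths. Sorted libraries held 45930438 to 92761588 reads in the knockout experiment and 10977763 to 17239256 after DMBA/TPA. A member is called where limma gave an adjusted p under 0.05 over all genes with a table mean of at least 10. In the P95H set, replicate 1 of P95H skin at 28 days stood apart, with 72 genes at 2 steps and 1816 at 3 steps, where the other libraries of the set had 948 to 3606 genes at 2 steps and 760 to 1602 at 3 steps. In sorted knockout cells, replicate 2 stood apart, with 1 read worth 3.42 normalised counts against 0.675 to 0.904 in the other 5 libraries. Srsf2 itself was 2973 ± 941 normalised counts in sorted SRSF2-KO cells and 18782 ± 1602 in sorted control cells (SD, n = 3 each; limma adjusted p = 0.043), while in whole skin no knockout group differed from controls past the threshold (adjusted p = 0.164 to 0.369). Sorted libraries of the knockout experiment carried 1128156 to 2544434 normalised counts of basal keratinocyte markers, against 171 to 526 of macrophage markers and 13.7 to 112 of endothelial markers, with Cdh5 at 0 in all 6 libraries.

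Cdkn2a and Cdkn2b are neighbours on mouse chromosome 4 (GRCm38), at chr4:89274471-89294653 and chr4:89306299-89311039, both on the minus strand. The 2 annotated transcripts of Cdkn2a, Cdkn2a-201 and Cdkn2a-202, have 852 and 895 exon bases and share 575 of them, so a count for the gene does not separate p16Ink4a from p19Arf. Cdkn2c lies at chr4:109660876-109667189 (minus strand), Cdkn2d at chr9:21288410-21291407 (minus strand), Cdkn1b at chr6:134920401-134925513 (plus strand) and Cdkn3 at chr14:46760541-46771669 (plus strand). No other annotated gene overlapped a member.

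The promoters of Cdkn2b, Cdkn2c and Cdkn3 are shown because these members passed the test at 4 days of knockout, the first in the opposite direction to the others. Each sequence runs from 250 bases before to 50 bases after an annotated start (RefSeq, GRCm38.p6), and RefSeq gave 8 promoters for the 6 members. Capitals mark the CCAAT box (CCAAT or ATTGG) and the cell cycle homology element CHR (TTTGAA or TTCAAA), both of which are found in promoters of G2 and mitosis genes. The windows are Cdkn2b at chr4:89310983-89311282, minus strand, Cdkn2c promoter 1 at chr4:109666707-109667006, minus strand, Cdkn2c promoter 2 at chr4:109665323-109665622, minus strand and Cdkn3 at chr14:46760291-46760590, plus strand.
Cdkn2b: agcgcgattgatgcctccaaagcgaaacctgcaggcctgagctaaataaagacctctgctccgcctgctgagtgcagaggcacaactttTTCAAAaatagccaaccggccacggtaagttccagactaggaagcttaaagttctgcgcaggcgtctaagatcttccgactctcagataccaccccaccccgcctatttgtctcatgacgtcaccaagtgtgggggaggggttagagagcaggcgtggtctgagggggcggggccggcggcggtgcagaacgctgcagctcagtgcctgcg
Cdkn2c promoter 1: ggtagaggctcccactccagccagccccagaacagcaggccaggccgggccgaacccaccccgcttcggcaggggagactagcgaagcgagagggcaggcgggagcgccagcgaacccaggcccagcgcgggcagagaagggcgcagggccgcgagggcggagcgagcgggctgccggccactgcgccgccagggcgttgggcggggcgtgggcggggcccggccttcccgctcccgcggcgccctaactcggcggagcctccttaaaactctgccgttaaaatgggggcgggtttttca
Cdkn2c promoter 2: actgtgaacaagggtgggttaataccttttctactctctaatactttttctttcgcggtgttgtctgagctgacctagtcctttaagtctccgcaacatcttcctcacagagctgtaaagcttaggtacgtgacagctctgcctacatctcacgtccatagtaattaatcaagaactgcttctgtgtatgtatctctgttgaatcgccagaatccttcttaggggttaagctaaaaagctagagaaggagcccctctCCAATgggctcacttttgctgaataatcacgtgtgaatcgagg
Cdkn3: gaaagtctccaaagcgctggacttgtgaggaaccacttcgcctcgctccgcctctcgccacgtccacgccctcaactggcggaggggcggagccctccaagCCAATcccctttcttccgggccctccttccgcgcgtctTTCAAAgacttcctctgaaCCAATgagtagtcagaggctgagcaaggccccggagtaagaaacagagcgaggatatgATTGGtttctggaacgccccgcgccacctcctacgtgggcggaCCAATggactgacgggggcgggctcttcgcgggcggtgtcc
The Cdkn3 promoter held 4 CCAAT boxes and 1 CHR, with no overlap between them. Cdkn2c promoter 2 held 1 CCAAT box and promoter 1 none, and the Cdkn2b promoter held 1 CHR. Over 32851 RefSeq mouse promoters of the same length, 37.4% held a CCAAT box and 17.9% a CHR on either strand. The E2F forms TTTGGCGC, TTTCCCGC, TTTCGCGC and TTTGCCGC, searched on both strands, were in none of these 4 windows and in 2.26% of all promoters. A match is a run of letters and not a tested binding site.

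In control skin of the knockout set, p27 was the most abundant of these transcripts per length of exon. Cdkn1b had 404 ± 42.1 steps per kilobase of exon, Cdkn2c 246 ± 58.6, Cdkn2b 218 ± 9.36, Cdkn2d 161 ± 25.4, Cdkn2a 17.6 ± 11.1 and Cdkn3 16.03 ± 4.44 (SD, n = 3). The means of Cdkn2c and Cdkn2b, and of Cdkn2a and Cdkn3, differed by less than their spread. At 4 days of knockout Cdkn2c stood first in that order, with 481 ± 86.4 steps per kilobase against 358 ± 29.8 for Cdkn1b. Cdkn1b was first in every other group. In sorted control cells of the knockout experiment Cdkn1b again led, with 1244 ± 144 normalised counts per kilobase, followed by Cdkn2d at 471 ± 75.6, and Cdkn2a was last at 1.49 ± 0.221.

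At 4 days of SRSF2 knockout, whole skin had more Cdkn2c and Cdkn3 transcript and less Cdkn2b transcript than control skin. Cdkn2c averaged 1293 ± 232 steps in knockout skin and 660 ± 157 in control skin, Cdkn3 averaged 106 ± 30.8 and 38.0 ± 10.5, and Cdkn2b averaged 177 ± 12.7 and 302 ± 13.01 (SD, n = 3 each). These 3 of 6 members were called, 2 higher and 1 lower, where 11.3% of all genes were called (7.21% higher and 4.12% lower). Over all genes the calls split into 1403 higher and 802 lower, against 399 and 344 on the deposited values and 1057 and 1030 with libraries set to equal totals. The groups did not overlap for 3 members that were higher and 1 that was lower, against 16% and 13.4% of all genes. In bulk skin, fewer cells of a type and less RNA per cell cannot be told apart.

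Cdkn2b, the TGF-beta-induced INK4 gene, had 175, 191 and 166 steps at 4 days, against 303, 315 and 289 in controls. All 3 knockout libraries lay below all 3 controls, 1.70-fold lower on the log2(value + 1) scale (log2 -0.77, SE 0.11, limma adjusted p = 0.00656). This call held in every alternative run, with adjusted p of 0.00384 to 0.0399.

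Cdkn2c, which encodes the INK4 protein p18, had 1111, 1213 and 1554 steps at 4 days, against 496, 673 and 810 in controls. The lowest knockout library stood above the highest control, and the difference was 1.98-fold (log2 0.98, SE 0.17, limma adjusted p = 0.00882). Cdkn3, the CDK phosphatase gene, had 80, 98 and 140 steps at 4 days, against 28, 37 and 49 in controls. Again no library of the groups overlapped, with a 2.74-fold difference (log2 1.45, SE 0.26, limma adjusted p = 0.00949). The Cdkn2c call was lost with no filter on low values (adjusted p = 0.0535) and with only these groups in the fit (0.0537), within a range of 0.00816 to 0.0537 over its alternatives. The Cdkn3 call was lost without knockout replicate 3 (adjusted p = 0.0525; range 0.00887 to 0.0525).

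Cdkn2d, the gene of p19Ink4d, had 324, 311 and 424 steps at 4 days, against 233, 227 and 299 in controls. The groups did not overlap, but the 1.39-fold difference did not pass (limma adjusted p = 0.0877). Cdkn1b had 1765, 1629 and 1494 steps in knockout skin and 2042, 1815 and 1661 in controls, and these ranges overlapped (log2 -0.17, limma adjusted p = 0.393). Cdkn2a was low, with 7, 8 and 11 steps at 4 days against 8, 34 and 20 in controls (limma adjusted p = 0.279).

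**Figure D1:**
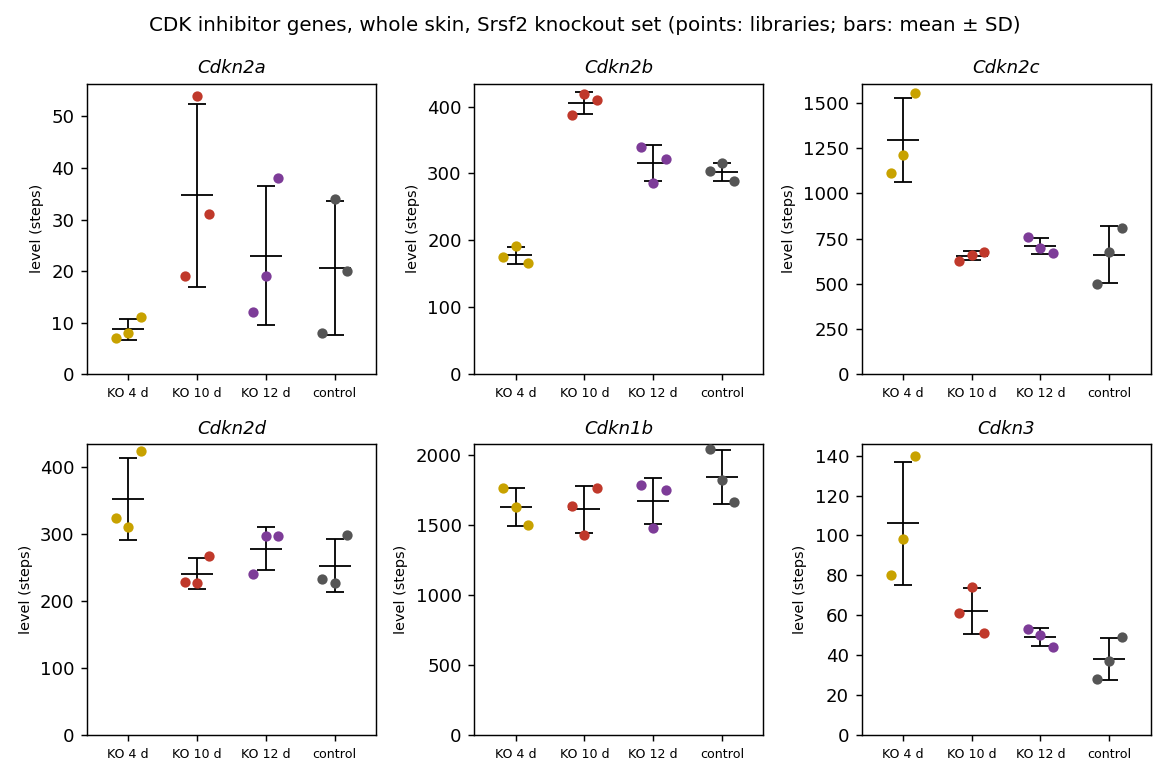
Levels (steps, linear axes from 0) of the 6 CDK inhibitor genes in whole skin of the knockout set, for knockout skin at 4, 10 and 12 days and for controls; points are libraries and bars give the mean ± SD (n = 3 each). Cdkn2b lay between 166 and 191 steps at 4 days, below all 3 controls, while Cdkn2c and Cdkn3 at 4 days lay above all 3 controls.

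Genes around these inhibitors were read from lists of the CDK, E2F and TGF-beta pathways. Of 9 G1 and S phase cyclins and kinases, 1 rose at 4 days and none fell: the D-type cyclin gene Ccnd3 (1.52-fold, limma adjusted p = 0.0183). Of 6 mitotic kinase and cyclin genes 2 rose, the B-type cyclin gene Ccnb2 (2.61-fold, limma adjusted p = 0.0302) and the cyclin F gene Ccnf (1.72-fold, limma adjusted p = 0.0385). Of 15 proliferation markers 2 rose, and all 15 had positive differences, with a median log2 of 0.71 beside -0.01 over all genes. The E2F activator E2f1 was the 1 gene called of 13 pocket proteins and E2F factors (2.12-fold, limma adjusted p = 0.0103). Of 10 measured genes on the TGF-beta route to p15, 3 rose and none fell: the ligand genes Tgfb2 (2.72-fold, limma adjusted p = 0.00679) and Tgfb1 (2.03-fold, 0.0178), and the receptor gene Tgfbr2 (15809 ± 3729 steps in knockout skin and 7886 ± 1696 in controls, 0.0111). The list median there was log2 0.01, close to that of all genes. Of 19 Polycomb and other regulators of the Ink4a/Arf locus 2 fell, the Polycomb gene Cbx2 (limma adjusted p = 0.0337) and the transcription factor gene Ets2 (0.0379).

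The cell type markers of the tissue moved at the same time. All 7 macrophage markers were called higher at 4 days, with a summed level of 81954 to 156722 steps in knockout skin and 30608 to 46652 in controls. All 7 fibroblast markers were higher too, at 1529706 to 3193847 steps against 355703 to 827141. Of 15 growing hair markers 2 were lower (867 to 16808 steps in knockout skin, 2719 to 127389 in controls), and of 7 basal keratinocyte markers 1 was lower. The part of these markers in the differences of Cdkn2b, Cdkn2c and Cdkn3 was not tested.

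**Figure D2:**
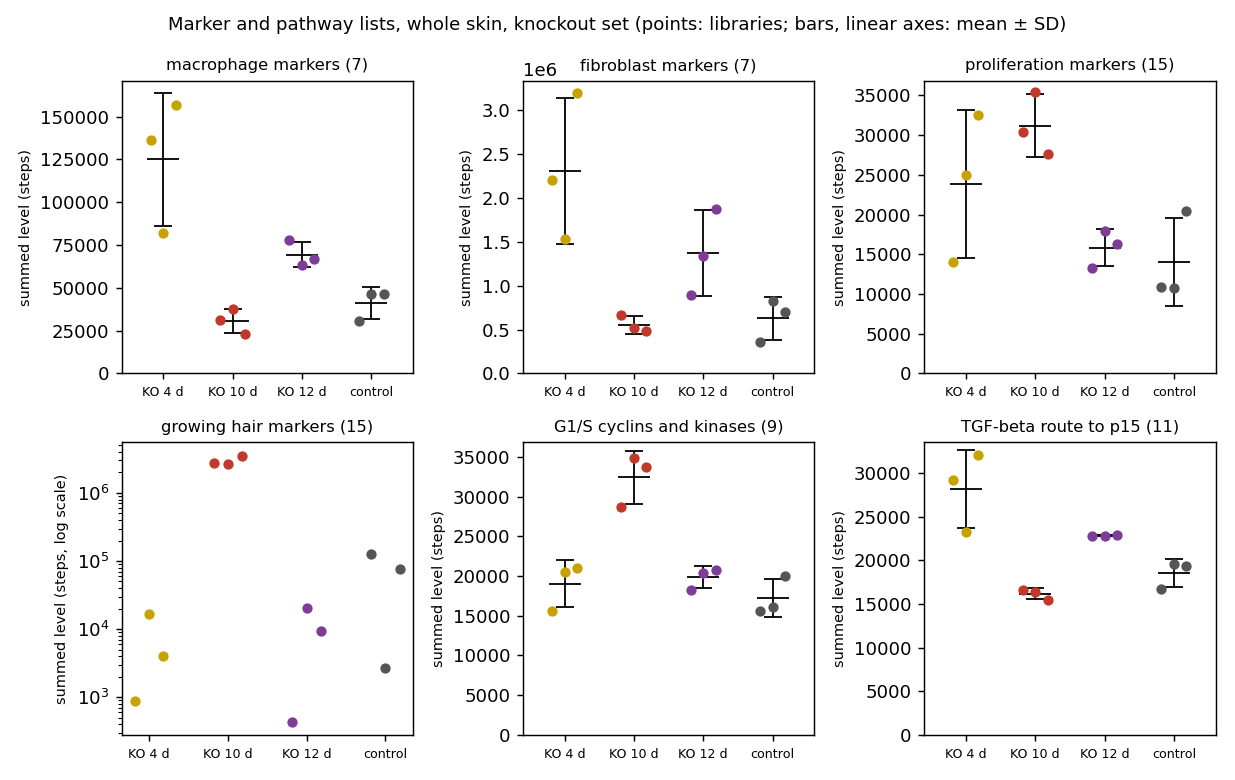
Summed levels (steps; the hair panel has a log axis, the others are linear from 0) of marker and pathway lists in whole skin of the knockout set, for knockout skin at 4, 10 and 12 days and for controls; points are libraries, and bars on linear axes give the mean ± SD (n = 3 each). Macrophage and fibroblast markers were highest at 4 days, and growing hair markers at 10 days reached 2629607 to 3518867 steps.

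At 10 days of knockout, Cdkn2b was the 1 member of 6 called against controls, and its direction was the opposite of that at 4 days; 25.3% of all genes were called at 10 days (13.3% higher and 11.9% lower). That split, 2593 higher and 2320 lower, was 3418 and 550 on the deposited values and 1201 and 6818 at equal totals. Cdkn2b had 387, 419 and 409 steps in knockout skin, against 303, 315 and 289 in controls. All 3 knockout libraries lay above all 3 controls, by 1.34-fold (log2 0.42, SE 0.11, limma adjusted p = 0.0221). With every library set to the same total the difference was log2 0.10 (limma adjusted p = 0.537), and the median of all genes moved to -0.34. Cdkn2b stood 0.44 above that median in each scaling. Scaling moves every gene of a library alike, so this equality is nearly fixed and does not bear on the call. The call was also lost without control replicate 1, 2 or 3 or knockout replicate 2 or 3 (adjusted p = 0.0521 to 0.0694; 0.0181 to 0.537 over all alternatives).

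Cdkn3 had 61, 74 and 51 steps at 10 days, against 28, 37 and 49 in controls. The groups did not overlap, and the 1.64-fold difference did not pass (limma adjusted p = 0.0645). Without overlap, 2 members were higher and 0 lower at 10 days, against 22% and 21.1% of all genes. Cdkn2c was back in the range of controls, with 627, 658 and 677 steps against 496, 673 and 810 (limma adjusted p = 0.957). Cdkn2d had 228, 227 and 268 steps against 233, 227 and 299 in controls (limma adjusted p = 0.81). For Cdkn1b, 1633, 1428 and 1764 steps at 10 days stood against 2042, 1815 and 1661 in controls (log2 -0.19, limma adjusted p = 0.261). At equal totals that gene was called lower (log2 -0.51, limma adjusted p = 0.00718), with the median of all genes at -0.34. Its adjusted p was 0.00718 to 0.789 over all alternatives.

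Many cyclin and mitosis genes were called higher at 10 days. Of 9 G1 and S phase cyclins and kinases 7 rose and none fell, among them the D-type cyclin genes Ccnd2 (2.30-fold, limma adjusted p = 0.00297) and Ccnd1 (2.82-fold, 0.00416) and the E-type cyclin gene Ccne2 (2.13-fold, 0.0199). Of 6 mitotic genes 5 rose, and of 15 proliferation markers 13 rose, with a median log2 of 1.19 beside -0.02 over all genes. The ubiquitin ligase subunit gene Skp2, whose product targets p27, rose 1.59-fold (limma adjusted p = 0.0168), as 1 of 3 genes that rose among 7 of p27 turnover. The transcription factor gene Foxo4, of the FOXO family that can induce Cdkn1b, was the 1 gene of that list that fell (limma adjusted p = 0.0136). Among 19 regulators of the Ink4a/Arf locus 3 fell and 1 rose, with the factor genes Ets1 (limma adjusted p = 0.00297) and Tbx3 (0.0282) and the Polycomb gene Cbx7 (0.0133) lower. Cdkn1a, the p21 gene, averaged 5486 ± 600 steps in knockout skin and 2920 ± 576 in controls (1.90-fold, limma adjusted p = 0.0115), while the p57 gene Cdkn1c averaged 185 in both.

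All 15 growing hair markers were called higher at 10 days, with a summed level of 2629607 to 3518867 steps in knockout skin, against 2719 to 127389 in controls. The 6 melanocyte markers were higher as well, and 5 of 5 endothelial and 4 of 6 muscle markers were lower. The part of these markers in the Cdkn2b difference was not tested.

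At 12 days none of the 6 members was called by limma against controls, where 1.28% of all genes were called (0.823% higher and 0.458% lower), and none had an unadjusted p under 0.05. The 160 genes called higher and 89 lower were 92 and 18 on the deposited values. Cdkn2b had 340, 286 and 321 steps in knockout skin, against 303, 315 and 289 in controls. Cdkn2c had 760, 697 and 672 steps against 496, 673 and 810, and Cdkn3 had 53, 50 and 44 against 28, 37 and 49. The ranges overlapped with controls for all 6 members, while 11.8% of all genes were higher and 10.8% lower without overlap.

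Between times of knockout, which involves no control, 5 of 6 members were called at 10 days against 4 days, where 40.3% of all genes were called (18.9% higher and 21.4% lower). The split of 3668 higher and 4166 lower was 5654 and 1472 on the deposited values and 2241 and 6721 at equal totals. Without overlap 2 members were higher and 3 lower, against 25.7% and 27.8% of all genes. Cdkn2b was 2.28-fold higher at 10 days (log2 1.19, SE 0.11, limma adjusted p = 5.71e-05), a call that held in every alternative run. Cdkn2c was 1.96-fold lower (log2 -0.97, SE 0.17, limma adjusted p = 0.0012), and that call held in every alternative too. Cdkn2d was 1.45-fold lower (limma adjusted p = 0.0227) and Cdkn3 1.67-fold lower (0.04). On the deposited values, where the median of all genes moved to log2 0.34, the calls of Cdkn2d and Cdkn3 were lost, as they were with no filter on low values (adjusted p = 0.055 for Cdkn2d and 0.1001 for Cdkn3). With only the groups compared the Cdkn3 call was lost (0.0554). The Cdkn2d call was also lost without 10-day replicate 1 or 2 or 4-day replicate 3 (adjusted p = 0.067 to 0.094; 0.00222 to 0.551 over its alternatives). The Cdkn3 call was lost without 10-day replicate 1 or 3 or 4-day replicate 2 or 3 (0.0678 to 0.156; 0.0123 to 0.345 over its alternatives).

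Cell type markers moved in the same comparison. At 10 days against 4 days all 15 growing hair markers were called higher (2629607 to 3518867 steps at 10 days, 867 to 16808 at 4 days), as were all 6 melanocyte markers (23663 to 35992 and 1300 to 2717). All 7 fibroblast markers were lower (480279 to 670812 steps at 10 days, 1529706 to 3193847 at 4 days), as were all 7 macrophage markers (23159 to 37447 and 81954 to 156722) and all 5 endothelial markers (3758 to 4529 and 7960 to 9603). Their part in the differences of the 5 members was not tested.

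Cdkn2a was the fifth member called between these times, and its levels were low throughout. It had 19, 54 and 31 steps at 10 days, against 7, 8 and 11 at 4 days (3.44-fold, log2 1.78, SE 0.55, limma adjusted p = 0.0226). All 3 libraries at 10 days lay above all 3 at 4 days. The controls, with 8, 34 and 20 steps, overlapped with both times, and neither time differed from controls past the threshold. The call was lost with no filter on low values (adjusted p = 0.096), and without 10-day replicate 2 or 3 or 4-day replicate 1 or 2 (0.053 to 0.0868), within 0.00649 to 0.096 over all alternatives.

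At 12 days against 4 days Cdkn2b was called, 1.77-fold higher (log2 0.83, limma adjusted p = 0.0183), as 1 of 6 members where 0.144% of all genes were called (0.108% higher and 0.036% lower), or 21 and 7 genes, with 23 and 3 on the deposited values and 52 and 9 at equal totals. Without overlap 2 members were higher and 3 lower, against 8.93% and 9.55% of all genes. At 12 days against 10 days it was again the 1 member called, 1.28-fold lower (log2 -0.36, limma adjusted p = 0.0268), where 37.6% of all genes were called (19.2% higher and 18.3% lower). The split of 3738 higher and 3569 lower was 1433 and 3638 on the deposited values and 7709 and 1827 at equal totals. No other member was free of overlap there, against 26% of all genes that were higher and 24.7% that were lower. Its order of levels over the 3 times was thus 10 days, 12 days and 4 days, with no overlap between any of the 3 groups. The call at 12 against 4 days was lost without any 1 of the 6 libraries compared (adjusted p = 0.0515 to 0.117). The call at 12 against 10 days was lost on the deposited values (0.063) and at equal totals (0.738), held in 8 of 14 alternatives, and at equal totals Cdkn2b stood at log2 -0.055 with the median of all genes at 0.35.

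**Figure D3:**
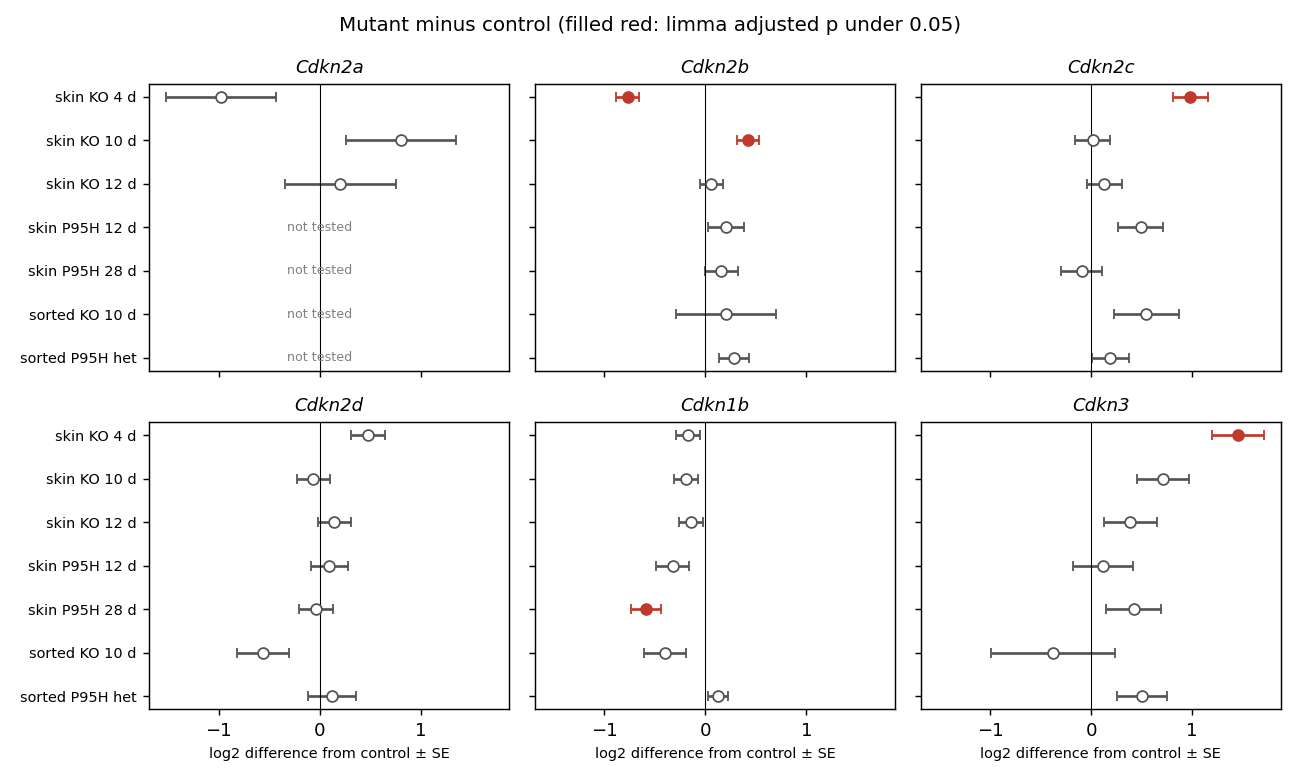
Log2 differences from control, mutant minus control ± SE from limma, for the 6 CDK inhibitor genes in 7 comparisons; filled red points have an adjusted p under 0.05, and Cdkn2a was under the level filter in 4 comparisons. The 5 calls against controls were Cdkn2b, Cdkn2c and Cdkn3 at 4 days, Cdkn2b at 10 days and Cdkn1b in P95H skin at 28 days.

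In skin with the P95H mutation the member that passed was Cdkn1b, the p27 gene, which was lower at 28 days. It had 865, 1349, 1423 and 1375 steps in P95H skin, against 2225, 1653 and 1720 in controls at 28 days. All 4 P95H libraries lay below all 3 controls, by 1.504-fold (log2 -0.59, SE 0.15, limma adjusted p = 0.0187). This was 1 of 5 members tested, where 12.2% of all genes were called (6.7% higher and 5.46% lower). The split of 1227 higher and 999 lower was 614 and 14 on the deposited values. At 12 days Cdkn1b had 1491 and 1536 steps in P95H skin, against 1958, 1843, 1885, 1912 and 1884 in controls. The groups did not overlap at 12 days either (1.25-fold lower, log2 -0.33, SE 0.16), as for 14% of all genes, but the difference did not pass (limma adjusted p = 0.247). With only the 12-day groups in the fit it passed (adjusted p = 0.0182; 0.0182 to 1 over its alternatives). The effects at 28 and 12 days did not differ past the threshold (log2 -0.26, limma adjusted p = 0.773), and neither did any other member, where 0.0109% of all genes were called, all of them higher at 28 days (0.0109%).

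The 28-day call of Cdkn1b depended on the libraries and the scaling. Without P95H replicate 1, the lowest library, it held (log2 -0.42, adjusted p = 0.0101), and without control replicate 1, the highest, it was lost (log2 -0.46, adjusted p = 0.0932), as it was without control replicate 4 (0.0512). The call held in 10 of 15 alternatives (adjusted p = 0.0101 to 0.966). On the deposited values the difference was log2 0.025 (limma adjusted p = 0.966), with the median of all genes at 0.59. Cdkn1b stood 0.57 below the median of all genes both there and on steps. Scaling moves every gene of a library alike, so this equality is nearly fixed and does not bear on the call.

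The INK4 genes and Cdkn3 were not called in P95H skin at either time. Cdkn2c had 498 and 333 steps at 12 days, against 273, 263, 265, 361 and 296 in controls (log2 0.49, limma adjusted p = 0.207). At 28 days it had 208, 372, 397 and 370 steps in P95H skin, against 378, 344 and 325 in controls (log2 -0.09, limma adjusted p = 0.799), and log2 0.12 without P95H replicate 1. Cdkn3 had 54, 56, 68 and 82 steps at 28 days, against 48, 59 and 38 in controls, a 1.34-fold difference with overlap (limma adjusted p = 0.314). Cdkn2b and Cdkn2d overlapped with controls at both times, with log2 differences of -0.04 to 0.20. Among all 5 members tested at 12 days none was called by limma, where 6.93% of all genes were called (3.96% higher and 2.97% lower). These were 726 and 543 genes, or 94 and 106 on the deposited values. The 1 member with an unadjusted p under 0.05 in limma was Cdkn2c.

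Cdkn2a was under the level filter in this set. At 12 days it had 7 and 31 steps in P95H skin, against 3, 4, 7, 9 and 4 in controls. At 28 days it had 9, 5, 5 and 10 steps in P95H skin, against 2, 4 and 1 in controls. The groups at 28 days did not overlap, as for 14.5% of all genes that were higher, but a fit without the filter gave adjusted p = 0.278 at 28 days and 0.345 at 12 days. The lowest of these controls lay at the 1 step at which undetected genes lie, so no fold is given.

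The G1 cyclin genes that were called in P95H skin were higher on steps, the scale on which Cdkn1b was lower. Of 9 G1 and S phase cyclins and kinases 3 rose at 28 days and none fell, namely Ccnd1 (1.56-fold, limma adjusted p = 0.00517), Ccnd2 (1.58-fold, 0.0118) and the E-type cyclin gene Ccne1 (2.02-fold, 0.0325). Ccnd1 was also higher at 12 days (1.69-fold, limma adjusted p = 0.00317). Of 15 proliferation markers 7 rose at 28 days and none at 12 days, but all 15 had positive differences at both times (median log2 0.49 at 28 days and 0.34 at 12 days) and none was called for the difference between the times. Cdkn1a averaged 4719 ± 742 steps in P95H skin and 2652 ± 228 in controls at 28 days (1.77-fold, limma adjusted p = 0.0013). On steps this was opposite in sign to Cdkn1b, whose difference was log2 0.025 on the deposited values. Cdkn1c averaged 69.5 steps in P95H skin and 69.3 in controls. Of the 7 measured genes of p27 turnover none was called at 28 days, and at 12 days Foxo4 was lower (limma adjusted p = 0.0468). Cbx7 was lower at both times (limma adjusted p = 0.00988 at 12 days and 0.00843 at 28 days). Of 7 suprabasal keratinocyte markers 3 were higher at 28 days, with a summed level of 156818 to 216037 steps in P95H skin and 100926 to 127518 in controls, and their part in the Cdkn1b difference was not tested.

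**Figure D4:**
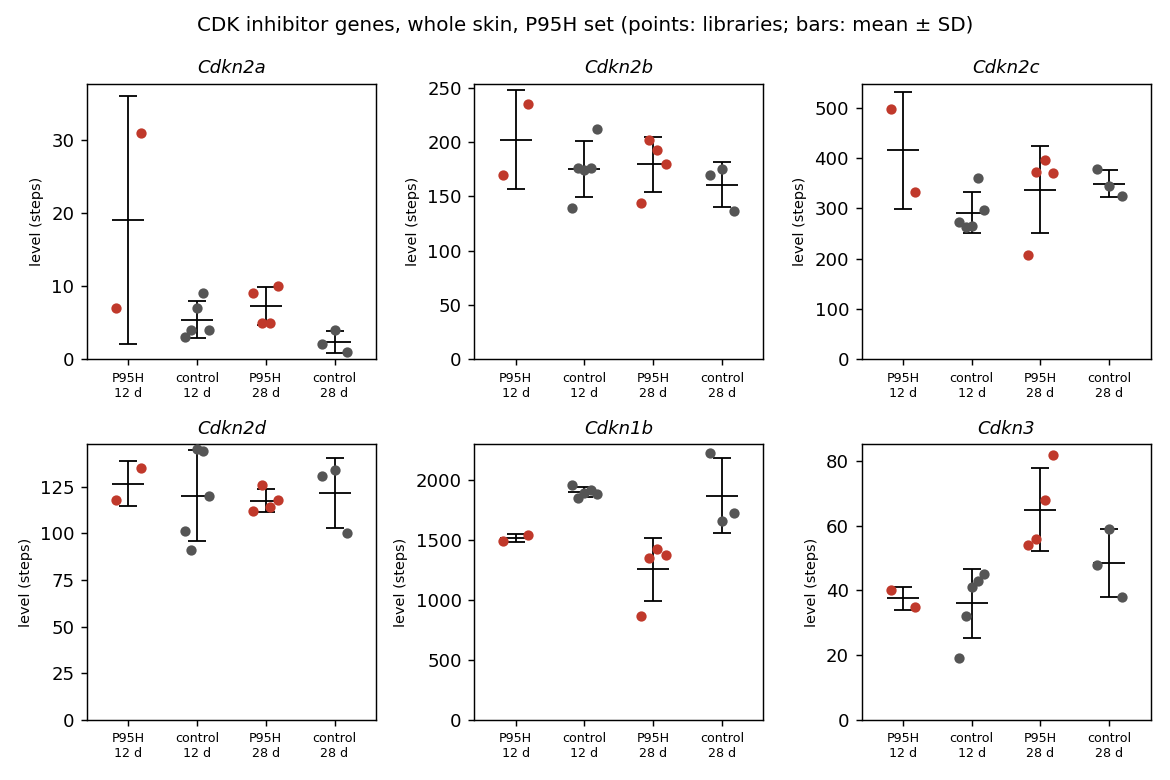
Levels (steps, linear axes from 0) of the 6 CDK inhibitor genes in whole skin of the P95H set, with P95H left of control at 12 days (n = 2 and 5) and at 28 days (n = 4 and 3); points are libraries and bars give the mean ± SD. Cdkn1b in P95H skin lay at 1491 and 1536 steps at 12 days and at 865 to 1423 at 28 days, below the controls of the same day.

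The controls of the P95H set, which also received the drug, were compared between 28 and 12 days of treatment. Time and length of treatment cannot be told apart there. At 28 days against 12 days none of the 5 members tested was called by limma, where 0.00546% of all genes were called, and none had an unadjusted p under 0.05. All 5 overlapped, while 5.8% of all genes were higher and 4.96% lower without overlap. Cdkn1b averaged 1866 ± 313 steps in 28-day controls (n = 3) and 1896 ± 42.3 in 12-day controls (n = 5).

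In sorted SRSF2-KO cells none of the 5 members tested was called by limma, edgeR or DESeq2. None had an unadjusted p under 0.05 in limma, where 0.0394% of all genes were called. Of the same 17744 genes edgeR called 3 and DESeq2 1256. Cdkn2d had 460, 623 and 433 normalised counts in knockout cells, against 864, 736 and 626 in control cells. All 3 knockout libraries lay below the controls (log2 -0.56, limma adjusted p = 0.31), as did 15.8% of all genes. Cdkn1b had 3659, 4089 and 5199 normalised counts, against 6021, 6057 and 4904 in control cells (log2 -0.40, limma adjusted p = 0.361).

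The other members were spread widely among the knockout libraries. Cdkn2b had 232, 1024 and 594 normalised counts in knockout cells, against 457, 446 and 453 in control cells. Cdkn2c had 924, 2027 and 1031, against 956, 800.2 and 807. Cdkn3 had 291, 47.9 and 164, against 185, 163 and 169. In each of these genes replicate 2 lay at one end of the group. Without it the log2 difference was -0.28 for Cdkn2b, 0.20 for Cdkn2c, 0.35 for Cdkn3, -0.72 for Cdkn2d (adjusted p = 0.0883) and -0.37 for Cdkn1b, and no member was called, while that fit called 410 of 17619 genes (184 higher and 226 lower). Cdkn2a had 2, 0 and 3 reads in knockout cells and 2, 3 and 2 in control cells, which is at or under the limit of 3 reads that a count of 0 allows. Cdkn1a averaged 25653 normalised counts in knockout cells and 40636 in control cells (limma adjusted p = 0.233).

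In sorted cells after DMBA/TPA none of the 5 members tested was called by limma, edgeR or DESeq2. None had an unadjusted p under 0.05 in limma, and limma called 0% of all genes. Of the same 14914 genes edgeR called 1 and DESeq2 338. Cdkn3 had 41.9, 48.4 and 36.8 normalised counts in SRSF2-P95H-het cells, against 23.9, 36.2 and 29.3 in control cells. The groups did not overlap (log2 0.50, limma adjusted p = 0.346), as for 11% of all genes that were higher. Cdkn1b, the member called in whole P95H skin, had 1727, 1782 and 1807 normalised counts in SRSF2-P95H-het cells and 1518, 1506 and 1870 in control cells, with overlap (log2 0.13, limma adjusted p = 0.566). Cdkn2a had 4, 6 and 9 reads in SRSF2-P95H-het cells and 5, 10 and 10 in control cells. Cdkn2b averaged 123 ± 10.9 and 101 ± 9.74, Cdkn2c 128 ± 14.99 and 113 ± 22.8, and Cdkn2d 228 ± 82.1 and 201 ± 22.3, in SRSF2-P95H-het and control cells (SD, n = 3 each).

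**Figure D5:**
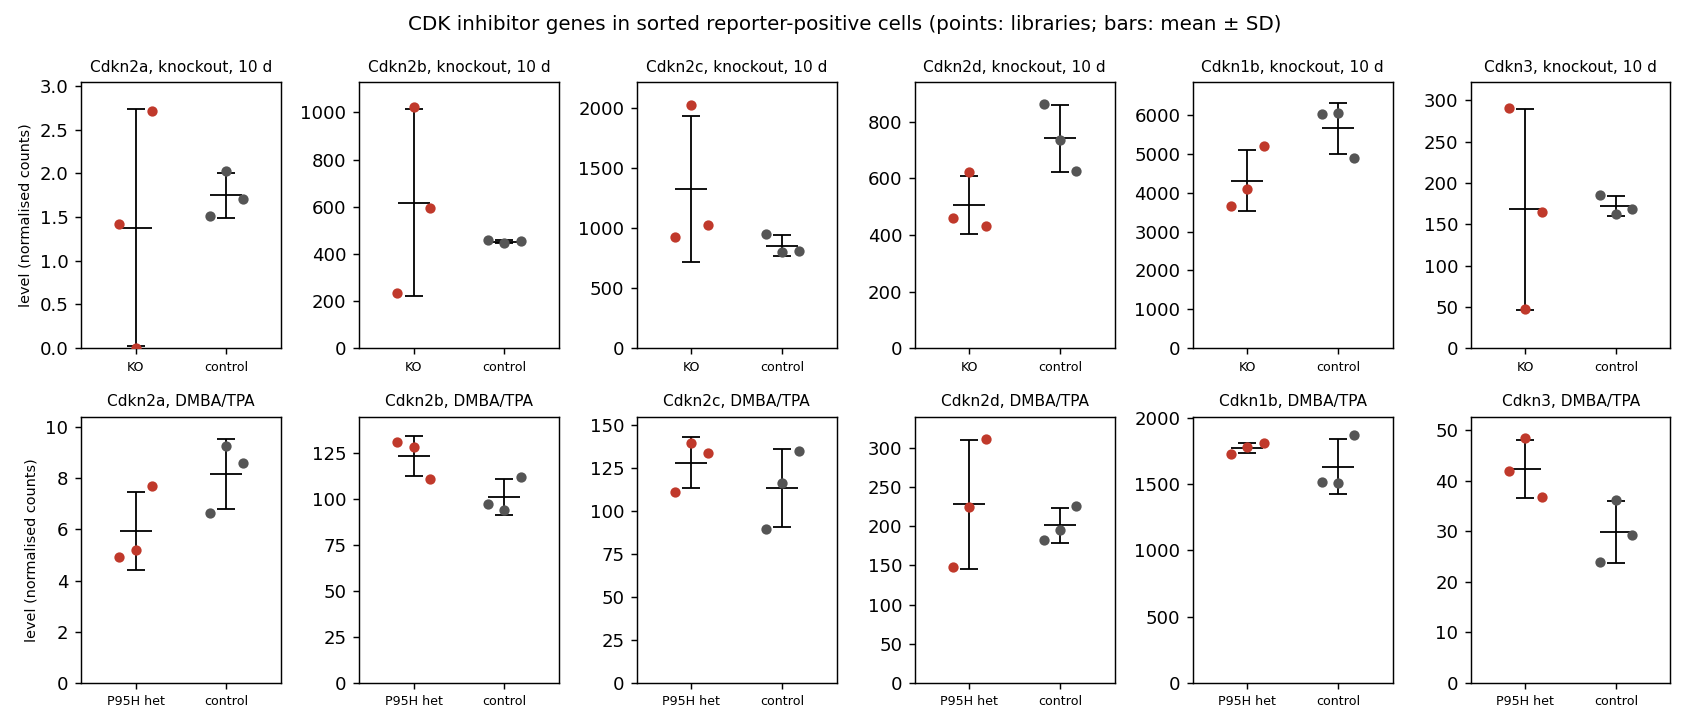
Levels (normalised counts, linear axes from 0) of the 6 CDK inhibitor genes in sorted reporter-positive cells, with knockout left of control at 10 days (top) and SRSF2-P95H-het left of control after DMBA/TPA (bottom); points are libraries and bars give the mean ± SD (n = 3 each). Knockout replicate 2 lay highest in Cdkn2b and Cdkn2c and lowest in Cdkn3, and Cdkn2d in knockout cells lay at 433 to 623, below the controls.

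Genes whose pattern over libraries was most like that of a member were sought among 12748 genes, by the mean of Pearson's r over the 12 knockout-set and the 14 P95H-set libraries of whole skin. For Cdkn3 they were Prr11 (mean r 0.88) and Mastl (0.88), a mitotic kinase gene. For Cdkn2b they were the adhesion gene Flrt3 (0.84) and the endothelin gene Edn1 (0.83), and for Cdkn2c the glycosylation gene Alg5 (0.87) and the autophagy gene Gabarap (0.86). For Cdkn1b they were Pcmtd2 (0.91) and Cnst (0.90), for Cdkn2d the adaptor gene Crkl (0.84) and the G protein gene Gna13 (0.84), and for Cdkn2a Pitpnm3 (0.84) and the kallikrein gene Klk10 (0.81). These are the highest of many values over libraries that share groups and scaling, and are given as a description. For Cdkn2a the P95H part of the mean rests on levels under the filter, of 1 to 31 steps.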

How the data were processed

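RNA was extracted with Trizol, and stranded total RNA libraries were made with different kits for the SRSF2-KO and the P95H mice, per the labels' protocols. STAR, featureCounts and DESeq2 are named in the submitters' processing notes; their versions and roles are not stated, and the genome build was not given in the sources used here. Signal values as deposited are normalised counts of genes, going by the names of the tables, and the values show a scaling factor for each library. All 100% of values were whole multiples of 1 unit per library (tolerance 0.0001). In sorted tables this unit is 1 read. In whole-skin tables most undetected genes lay at 1 unit, up to 40 genes of a library lay below it, and the multiples, here called steps, were already levelled between libraries, so steps were analysed there and the deposited values kept as an alternative. Counting error is set by reads in sorted cells and is not known in whole skin.

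limma 3.58.1 (R 4.3.3) was fitted with a trend to log2(value + 1), separately for the 4 tables, with group means as coefficients and two-sided moderated tests of genes averaging at least 10. Adjustment of p-values (Benjamini-Hochberg) covered every gene tested in a comparison, with a threshold of 0.05. Folds are on that log2 scale, which understates changes of low genes. edgeR 4.0.16 and DESeq2 1.42.0 were run on the recovered reads of sorted cells. Libraries are labelled as biological replicates. In sorted cells, no pair of libraries within a group agreed within sampling noise (chi-square over degrees of freedom at least 11.04). In whole skin that ratio was at least 5.72, but it was taken on steps, whose sampling noise is not known, so it does not decide this there. The members, pathway lists and marker lists were chosen with earlier results of these data known. Named genes were the members, Srsf2, Cdkn1a and Cdkn1c, up to 3 genes of a described list with the smallest p past the threshold, and the 2 genes most like each member (mean of at least 50). Positions are from GENCODE M21 (GRCm38), matched by symbol; the identifiers of Cdkn2b and Cdkn3 differ there in version. Alternatives were the deposited values, equal totals, TMM factors, a pseudocount of 10, no filter, a mean of at least 50, only the groups compared, the replicate number as a block, and leaving out each library.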

Additional observations from a re-analysis of the deposited data

Results flagged for a closer look

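In groups of 4 to 10 libraries, 12 member-by-group sets were examined for a library far from the rest, and chance alone gives about 1 in 20. P95H skin at 28 days, replicate 1, stood apart for 2 members: Cdkn1b had 865 steps there, against 1349 to 1423 in the other P95H libraries, and Cdkn2c had 208 steps, against 370 to 397. This is the library in which 72 genes lay at 2 steps.

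Levels in knockout skin differed between times by a test of the times themselves, each on the log2 scale with limma. At 10 days minus 4 days the differences were 1.78 for Cdkn2a, 1.19 for Cdkn2b, -0.97 for Cdkn2c, -0.54 for Cdkn2d and -0.74 for Cdkn3. Cdkn2b also differed at 12 minus 4 days (0.83) and at 12 minus 10 days (-0.36). These are differences between the knockout groups, since the same controls serve every time and none was treated for 4 days. Length of treatment and the effect of gene loss cannot be told apart in them.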

How the results depend on the processing

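The number of members called (3 at 4 days, 1 at 10 days, 5 at 10 against 4 days, 1 at 12 against 4 and at 12 against 10 days, 1 in P95H skin at 28 days, 0 elsewhere) moved by over 1.5 times as follows. On deposited values it was 2 at 10 days, 3 at 10 against 4 days, and 0 at 12 against 4 days, at 12 against 10 days and in P95H skin at 28 days. At equal totals it was 2 at 12 against 10 days. With no filter it was 2 at 10 against 4 days and 0 in P95H skin at 28 days. With only the groups compared it was 1 in P95H skin at 12 days, and 0 at 28 days, at 12 against 4 and at 12 against 10 days. Leaving out 1 library gave 2 to 3 calls at 4 days, 0 to 1 at 10 days, 3 to 4 at 10 against 4 days, 0 to 0 at 12 against 4 days, 0 to 1 at 12 against 10 days and 0 to 1 in P95H skin at 28 days. The cause was not tested.

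The count over all genes moved by over 1.5 times as follows. At 4 days it was 2205, against 743 on deposited values, 342 with no filter and 775 with only the groups compared. At 10 days it was 4913, against 8019 at equal totals and 1970 with no filter. At 12 days it was 249, against 110, 88 and 123 under the settings named for 4 days, and 153 with a mean of at least 50. At 12 against 4 days it was 28, against 61 at equal totals, 60 with a pseudocount of 10, 15 with a mean of at least 50 and 16 with the replicate block. In P95H skin it was 1269 at 12 days, against 200 on deposited values, 818 with no filter and 786 with the block, and 2226 at 28 days, against 628 and 908 under the first 2 of these. For the difference of P95H effects it was 2, against 71 on deposited values and 54 with no filter. It was 1 there with a mean of at least 50 or with the block. For the controls it was 1, against 454 on deposited values and 14 with no filter. Among these controls it was 2 with a pseudocount of 10, 3 with a mean of at least 50 and 0 with the block. In sorted knockout cells it was 7, against 3 by edgeR, 1256 by DESeq2, 11 with a pseudocount of 10, and 0 at equal totals or with the block. After DMBA/TPA it was 0, against 1 by edgeR, 338 by DESeq2, 73 with no filter and 113 with the block. It was 1 there at equal totals or with TMM factors. Leaving out 1 library gave 294 (without knockout replicate 3) to 2584 genes at 4 days, with 540 without control replicate 1 and 1185 without knockout replicate 1. It gave 1434 (without control replicate 2) to 4877 at 10 days, 42 to 143 at 12 days and 3 to 20 at 12 against 4 days. In P95H skin it gave 323 (without P95H replicate 2) to 1444 at 12 days and 701 (without control replicate 4) to 2442 at 28 days. For the difference of P95H effects it gave 1 to 5 where each group kept at least 2 libraries. For the controls at 28 against 12 days it gave 0 to 57, the highest without 12-day control replicate 3. In sorted cells it gave 0 to 410 after knockout, the highest without knockout replicate 2, and 0 to 99 after DMBA/TPA.

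Differences that changed sign were those of members not called, except Cdkn1b in P95H skin at 28 days (log2 0.025 on deposited values). On deposited values the others were, at 10 days, Cdkn2d 0.21 and Cdkn1b 0.084; at 10 against 4 days, Cdkn1b 0.35; at 12 against 10 days, Cdkn2c -0.087 and Cdkn1b -0.15; in P95H skin at 12 days, Cdkn2d -0.0080; at 28 days, Cdkn2c 0.52 and Cdkn2d 0.57; for the difference of P95H effects, Cdkn2b 0.67, Cdkn2c 0.13, Cdkn2d 0.58 and Cdkn1b 0.45; for controls at 28 against 12 days, Cdkn2c -0.56, Cdkn2d -0.79 and Cdkn3 -0.35. At equal totals Cdkn2c was -0.30 at 10 days and Cdkn2b -0.14 in sorted knockout cells. Leaving out 1 library gave ranges through 0 for Cdkn1b at 10 against 4 days (-0.090 to 0.062), 12 against 10 (-0.029 to 0.14) and 12 against 4 (-0.028 to 0.12); Cdkn2c at 10 days (-0.18 to 0.18) and 12 days (-0.059 to 0.29); Cdkn2d at 10 days (-0.14 to 0.063); and Cdkn2a at 12 days (-0.32 to 0.65). In the P95H set the ranges were -0.032 to 0.43 for Cdkn2b, -0.0021 to 0.19 for Cdkn2d and -0.091 to 0.21 for Cdkn3 at 12 days. They were -0.19 to 0.12 for Cdkn2c and -0.17 to 0.036 for Cdkn2d at 28 days, -0.27 to 0.19 for Cdkn2b in the difference of effects, and -0.064 to 0.16 for Cdkn2d and -0.17 to 0.045 for Cdkn1b in controls. In sorted cells they were -0.28 to 0.79 for Cdkn2b and -0.94 to 0.35 for Cdkn3 after knockout, and -0.14 to 0.40 for Cdkn2d after DMBA/TPA.

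Replicate numbers were not taken to pair the libraries. In no comparison did every same-numbered pair deviate together with a correlation over 0.1 (at 4 days -0.46 to 0.83). In sorted cells, though, same-numbered pairs correlated at 0.080 to 0.23 after knockout and at 0.074 to 0.22 after DMBA/TPA. Every pair with unlike numbers there was negative, which is in part forced, since deviations within a group sum to 0. The cut of 0.1 does not settle whether the sorted libraries were paired. With the replicate block, 4 members were called at 4 days (Cdkn2d added, adjusted p = 0.0422) and 0 at 12 against 4 days (Cdkn2b, adjusted p = 0.051), and Cdkn3 in the difference of P95H effects was -0.024. TMM factors, the pseudocount of 10 and a mean of at least 50 changed no count of members called by over 1.5 times. Cdkn2a is limited by its low level everywhere, and 2 P95H libraries limit the 12-day comparison.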
